A study of Mus musculus with 23 samples.

Results

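Expression of 10 genes of the Wnt pathway is described here across 23 clonal mouse preadipocyte lines: the ligands Wnt16 and Wnt5a, the R-spondins Rspo1 and Rspo3, the receptors Ror1 and Ror2, and the secreted inhibitors Sfrp1, Sfrp2, Dkk2 and Dkk3. They were taken by symbol, as 10 of the 18193 genes named on the array. They are read by 22 probe sets, and a gene takes its value from whichever of its probe sets averaged highest across the series. The genes were selected on their measured differences in level between the line types, so those differences are given as a description, without a test. All 10 were among the 12307 genes that lay above the median of the whole table, a log2 signal of 5.13, in at least 3 lines; Rspo1 met that filter only through the 3 lines in which it is high.

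Wnt proteins are secreted lipid-modified ligands that bind Frizzled receptors. In the canonical branch, with an Lrp5 or Lrp6 co-receptor, they stabilise beta-catenin, which then acts with Tcf and Lef factors on target genes; Wnt5a is the usual example of a ligand that signals without beta-catenin, through the receptor tyrosine kinases Ror1 and Ror2. R-spondins raise Wnt receptor levels by binding Lgr receptors and removing the ubiquitin ligases Znrf3 and Rnf43. Sfrp proteins bind Wnt ligands outside the cell, Dkk2 binds the Lrp co-receptors, and Dkk3 is a divergent family member whose action on the pathway is less settled. In fat, canonical Wnt signalling is known for holding preadipocytes back from becoming adipocytes.

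The lines were grown from single cells of the stromal vascular fraction, the part of fat tissue left after the fat-filled cells are removed, of 1 male Immortomouse aged 8 weeks. Cells of this strain carry a temperature-sensitive viral antigen, and all lines were kept at 33 °C with interferon gamma at 10 units/mL. Expression was measured on 23 oligonucleotide arrays, 1 per line, and all levels are the deposited log2 signal, whose precision rests on the number of arrays. The labels give 4 groups: Type 1 with 3 lines, all from perigonadal fat (clone names beginning PGF); Type 2 with 5 lines, 1 PGF and 4 from subcutaneous fat (SCF); Type 3 with 8 lines, 4 of each; and Other, which collects 7 lines outside the numbered types, 3 PGF and 4 SCF. Each line has a differentiation score from its lipid staining after induction and a media acidification score; no source used here gives the direction of the second score or says if the RNA came from induced cells. The score was 2 in all 3 Type 1 lines, 2 or 4 in Type 2, and 2, 3 or 4 in Type 3 and Other. The groups had been formed by clustering expression of these lines. Every line is a clone of the same mouse, and p-values here measure how clones vary, not animals.

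Of 6 preadipocyte and fibroblast markers, Pdgfra read 8.49 to 12.70 in all 23 lines. Pdgfrb, Dlk1 and Dpp4 also lay above the table median throughout (8.82 to 12.27, 5.58 to 8.71 and 5.36 to 6.54). Cd34 ran from 3.49 to 10.85 and Thy1 from 4.46 to 10.50. Pdgfrb was lower in Type 1 (8.82 to 9.11) than in all other lines (at least 10.51). Of 5 leukocyte and macrophage markers, Ptprc, Adgre1 and Itgam stayed below the table median in all lines (Ptprc at 2.86 to 3.61), Csf1r lay above it in all of them (5.98 to 11.68) and Cd68 ran from 4.12 to 7.66. Of 5 endothelial markers, Pecam1 (3.21 to 3.76), Cdh5 and Emcn stayed below it, Kdr lay above it in all lines (5.49 to 8.86) and Tek ran from 3.97 to 10.59. The mean log2 level of 7 mesothelial markers was 9.57 to 10.44 in Type 1. It was 4.32 to 4.57 in Type 2, and Type 3 and Other lay at 3.97 to 4.46 and 4.14 to 5.51. Of the 7, 6 lay above the table median in all 3 Type 1 lines. Krt19 went the other way from Type 2, at 4.97 to 6.37 in Type 1 and 7.19 to 8.83 in Type 2. It ran from 4.96 to 7.44 in Type 3 and from 5.52 to 9.76 in Other. Of 6 adipocyte markers, the mean was 5.08 to 5.60 in Type 1; Type 2 lay at 6.85 to 7.95, Type 3 at 6.85 to 8.06 and Other at 5.42 to 7.27. By its mean, though not by every gene, the mesothelial list thus separated Type 1 from all other lines. The mean of the adipocyte list separated it from Types 2 and 3 but not from Other. The mean of 5 smooth muscle markers was 8.32 to 8.98 in Type 1, with Type 2 at 7.47 to 8.45, Type 3 at 6.34 to 7.89 and Other at 6.13 to 9.08. The part of these in the differences described below was not tested. Line 7 of Other had a mean gene-centred correlation of -0.15 with the other lines of Other, which themselves lay at -0.0042 to 0.10. It read 13.72 for Acta2 and 12.62 for Tagln, contractile genes that were also high in Type 1 (12.07 to 13.45 and 12.27 to 13.24). Type 2 read 12.50 to 13.24 for Acta2 and 9.24 to 11.33 for Tagln. The same line read 3.53 for Wt1 and 4.47 for Upk3b, against at least 10.40 and 12.18 in Type 1. Its Krt19, at 9.76, was above that of Type 1. Line 6 of Other read 7.08 for the mesothelial gene Upk3b, against at most 4.77 in the Type 2 and Type 3 lines. In bulk RNA of a line, fewer cells that express a gene and less RNA per cell cannot be told apart.

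**Figure D1:**
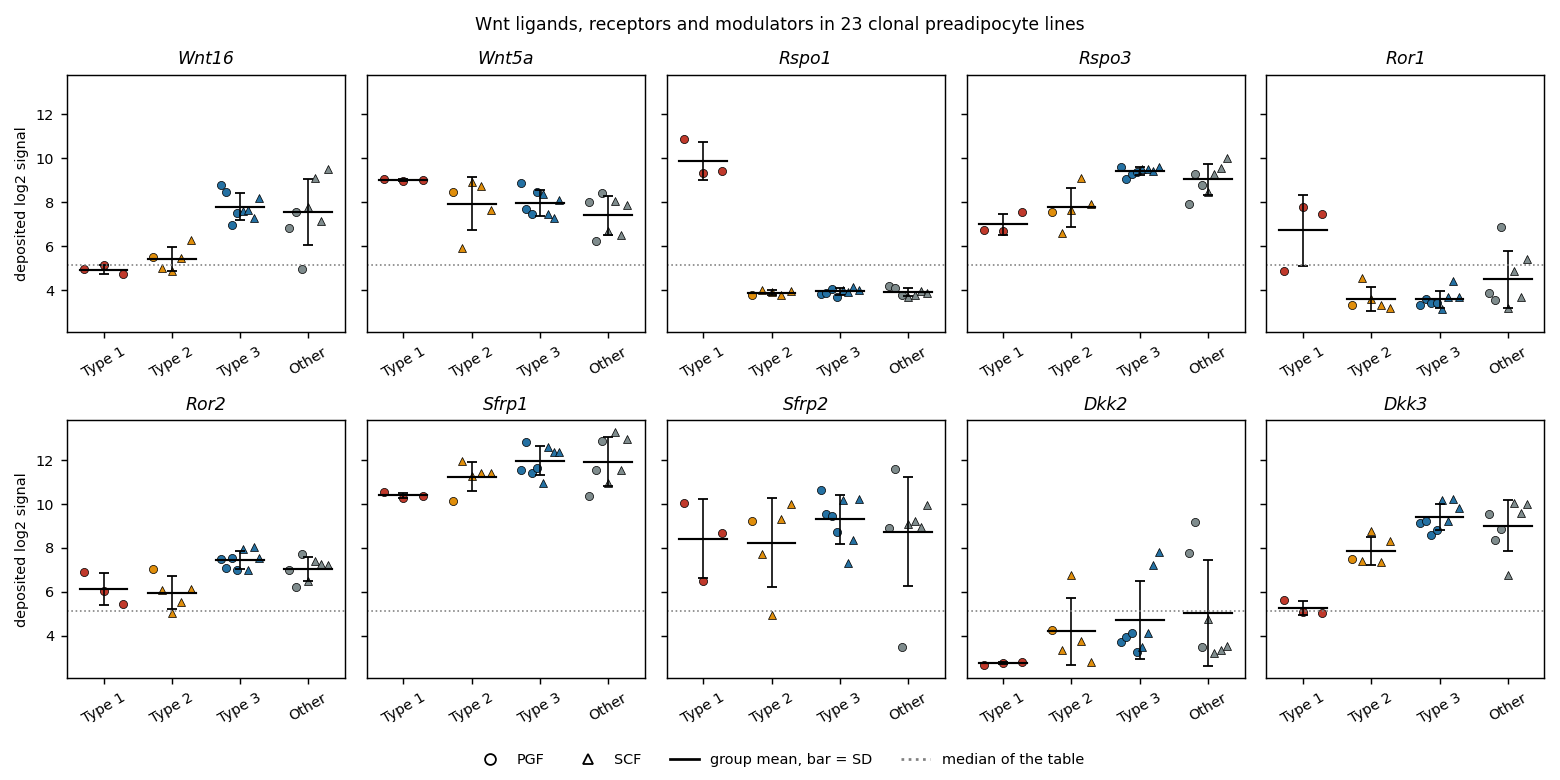
Deposited log2 signal of the 10 genes (y axis) in each line, by labelled group (x axis). Circles are PGF and triangles SCF lines, the horizontal line is the group mean with its SD, and the dotted line is the table median of 5.13. Rspo1 lies at 9.34 to 10.88 in Type 1 and at 3.68 to 4.16 in the 20 other lines, and Wnt16 lies at 6.95 to 8.79 in Type 3.

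The levels fell into a few patterns. Rspo1, Ror1 and Wnt5a were higher in every Type 1 line than in any Type 2 or Type 3 line, and Dkk3 and Dkk2 were lower. Wnt16, Rspo3, Ror2 and Sfrp1 were also lower in every Type 1 line than in any Type 3 line. In count, 5 of the 10 genes had values that did not overlap between Type 1 and Type 2 (3 higher and 2 lower in Type 1), beside 32.1% of all tested genes, and 9 did not overlap between Type 1 and Type 3 (3 higher and 6 lower), beside 29%. Between Type 2 and Type 3 only Wnt16 did not overlap, beside 3.28% of all tested genes. The genes were listed from these contrasts, and nothing further is read from the counts.

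The promoters of 5 genes that carry these patterns are shown, from RefSeq on build GRCm38.p6, 5′ to 3′ on the strand of the gene. Each window runs from 250 bases before to 50 after a start site listed in that table. For Ror1 and Ror2 that site is the start of the RefSeq gene record, and for Wnt16, Rspo1 and Dkk2 it lies 49, 29 and 26 bases downstream of it. Rspo1 and Ror1 have the widest differences above Types 2 and 3 in Type 1, Wnt16 and Ror2 are higher in Type 3, and Dkk2 was high in a few lines. Capitals mark every match, on either strand, to CTTTGA, the core of Tcf and Lef binding sites, or to the TATA box letters TATAAA.
Rspo1, chr4:124986180-124986479, plus strand: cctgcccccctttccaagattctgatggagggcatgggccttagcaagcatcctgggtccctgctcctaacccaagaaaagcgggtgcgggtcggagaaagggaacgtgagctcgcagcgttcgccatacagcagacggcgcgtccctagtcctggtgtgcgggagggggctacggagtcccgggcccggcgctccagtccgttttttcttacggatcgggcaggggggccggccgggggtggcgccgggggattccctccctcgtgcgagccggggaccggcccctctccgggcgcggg
Ror1, chr4:100095541-100095840, plus strand: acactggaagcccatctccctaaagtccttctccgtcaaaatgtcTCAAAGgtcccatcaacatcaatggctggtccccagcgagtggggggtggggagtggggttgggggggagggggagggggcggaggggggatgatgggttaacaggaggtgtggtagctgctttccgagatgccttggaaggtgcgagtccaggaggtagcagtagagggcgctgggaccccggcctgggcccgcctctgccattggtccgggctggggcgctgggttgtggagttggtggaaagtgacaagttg
Wnt16, chr6:22287977-22288276, plus strand: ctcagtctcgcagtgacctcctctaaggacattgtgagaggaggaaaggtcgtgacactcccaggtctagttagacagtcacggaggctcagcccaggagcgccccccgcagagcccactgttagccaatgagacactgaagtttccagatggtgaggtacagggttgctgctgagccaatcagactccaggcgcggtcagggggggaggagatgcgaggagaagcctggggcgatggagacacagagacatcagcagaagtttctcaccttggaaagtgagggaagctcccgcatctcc
Ror2, chr13:53286075-53286374, minus strand: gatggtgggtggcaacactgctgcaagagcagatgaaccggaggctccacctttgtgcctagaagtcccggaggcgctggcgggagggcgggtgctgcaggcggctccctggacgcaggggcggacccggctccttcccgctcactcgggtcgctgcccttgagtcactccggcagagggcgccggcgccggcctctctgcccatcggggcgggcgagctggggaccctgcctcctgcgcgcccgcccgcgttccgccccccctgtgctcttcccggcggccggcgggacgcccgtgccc
Dkk2, chr3:132085042-132085341, plus strand: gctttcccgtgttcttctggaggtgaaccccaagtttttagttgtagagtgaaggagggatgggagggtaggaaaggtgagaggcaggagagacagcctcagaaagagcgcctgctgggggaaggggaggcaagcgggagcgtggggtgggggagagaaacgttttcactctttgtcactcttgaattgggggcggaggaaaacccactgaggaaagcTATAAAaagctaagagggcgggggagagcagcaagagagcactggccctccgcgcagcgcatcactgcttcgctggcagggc
Of the 6 members with a promoter in the table used, the sixth being Sfrp2, 1 held CTTTGA: Ror1, on the opposite strand at positions 46 to 51 counted from the start of the window. That motif is in 16.0% of all 32851 promoters of this length. TATAAA is in 13.6% of them and, among the 6, in that of Dkk2 alone, at positions 219 to 224. The Rspo1, Ror2 and Wnt16 windows hold neither. Ror2 and Rspo1 have GC-rich windows, at 74.7% and 69.0% G and C with 32 and 29 CpG, against medians of 52.7% and 7 over all promoters; Wnt16 and Dkk2 lie at 58.0% and 57.7%, with 10 and 11 CpG.

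Wnt16, a ligand gene on chromosome 6, read 4.94, 5.14 and 4.71 in Type 1 and 4.99, 4.87, 5.44, 6.28 and 5.49 in Type 2. In Type 3 its lowest, median and highest values were 6.95, 7.61 and 8.79, and in Other 4.96, 7.56 and 9.53. All 8 Type 3 lines were above all 8 lines of Types 1 and 2, and Other spanned nearly the whole range, with its highest value in line 4 and its lowest in line 7. The mean in Type 2 was 5.41 ± 0.55 (SD, n = 5) and in Type 3 7.80 ± 0.63 (SD, n = 8), a difference of -2.39 ± 0.52 (SE), or 5.23-fold lower in Type 2. Type 1 averaged 4.93 ± 0.21 (SD, n = 3), a difference of -2.87 ± 0.62 (SE) from Type 3 in log2 signal. Neighbours in the order Type 3, Other, Type 2, Type 1 overlapped at each step.

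Wnt5a, on chromosome 14, was the most even gene in Type 1, at 9.04, 8.97 and 9.01, a mean of 9.01 ± 0.04 (SD, n = 3). Type 2 lines read 5.92, 8.90, 8.75, 7.66 and 8.47. Type 3 ran from 7.28 through a median of 7.90 to 8.89, and Other from 6.25 through 7.88 to 8.43. The lowest Type 1 line was thus 8.97 and the highest of the 20 other lines 8.90, a separation far smaller than the spread among those 20 (SD 0.87). The difference of Type 1 from Type 2 was 1.07 ± 0.57 and from Type 3 1.04 ± 0.53 (SE). Without line 1 of Type 2, the lowest in the series, the Type 1 minus Type 2 difference was 0.57. Type 3, Type 2 and Other, in that order, overlapped. Of its other 3 probe sets, the pair that passed the filter followed the main set (r of 0.97 and 0.93 over 23 lines).

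Rspo1, on chromosome 4, encodes an R-spondin and had the widest gap between groups. It read 10.88, 9.34 and 9.43 in Type 1. Type 2 read 3.98, 3.93, 3.77, 3.94 and 3.76, Type 3 ran from 3.68 through 3.96 to 4.15 and Other from 3.69 through 3.87 to 4.16. The 20 lines outside Type 1 all lay below the table median, and no line of Other joined Type 1. The Type 1 mean of 9.89 ± 0.86 (SD, n = 3) lay above that of Type 2 (3.88 ± 0.10, n = 5) by 6.01 and that of Type 3 (3.94 ± 0.15, n = 8) by 5.94 in log2 signal. With values this low outside Type 1 no fold is given: with an offset of 16 on the linear scale the differences were 4.97 and 4.94. Among PGF lines alone the gap was as wide: 9.34 to 10.88 in Type 1, against 3.76 in the Type 2 line, 3.68 to 4.07 in those of Type 3 and 3.77 to 4.16 in those of Other. Only 1 probe set reads this gene.

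Rspo3, on chromosome 10, ran the other way from Rspo1. It read 6.74, 6.69 and 7.54 in Type 1 and 6.61, 7.66, 9.08, 7.90 and 7.58 in Type 2. Type 3 was narrow, from 9.08 through 9.47 to 9.62, and Other ran from 7.93 through 9.28 to 10.00. Line 3 of Type 2, at 9.08, reached the Type 3 range, and the other 4 Type 2 lines were below all of Type 3. The Type 1 mean was 6.99 ± 0.48 (SD, n = 3) and the Type 3 mean 9.42 ± 0.18 (SD, n = 8), a difference of -2.44 ± 0.38 (SE); the difference of Type 2 from Type 3 was -1.66 ± 0.32. The second probe set of Rspo3, which did not pass the filter, gave -0.64 for Type 1 minus Type 3 and -0.15 for Type 2 minus Type 3.

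Ror1, on chromosome 4, encodes a receptor tyrosine kinase that binds Wnt5a. It read 4.87, 7.80 and 7.48 in Type 1, so line 1 lay well under lines 2 and 3 and below the table median. Type 2 read 4.54, 3.59, 3.31, 3.19 and 3.32, and Type 3 ran from 3.12 through 3.49 to 4.40. In Other the range was 3.20 through 3.85 to 6.86, with line 7 at the top and line 4 next at 5.42; Type 1 and Other overlapped. The mean was 6.72 ± 1.61 in Type 1 (SD, n = 3) and 3.59 ± 0.55 in Type 2 (SD, n = 5), a difference of 3.13 ± 0.66 (SE) in log2 signal. It was 4.05 without line 1 of Type 1, and all Type 2 lines lay below the table median. That gap rests on the main probe set: the other 2, neither of which passed the filter, differed between Type 1 and Type 2 by 0.04 and 0.05.

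Ror2, the second of these receptors, lies on chromosome 13. It read 6.93, 6.04 and 5.44 in Type 1 and 6.08, 5.05, 5.56, 6.11 and 7.06 in Type 2. Type 3 ran from 6.98 through 7.52 to 8.04 and Other from 6.22 through 7.24 to 7.74. In Type 2 only line 5, the single PGF line of that group, reached the Type 3 range. Type 2 averaged 5.97 ± 0.75 (SD, n = 5) and Type 3 7.45 ± 0.41 (SD, n = 8), a difference of -1.48 ± 0.31 (SE). Type 1 differed from Type 3 by -1.32 ± 0.37, and its mean was within the spread of Type 2. Its second probe set differed the same way from Type 3, by -0.36 in Type 1 and -0.30 in Type 2.

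Sfrp1, on chromosome 8, encodes a soluble Wnt-binding protein and read above 10 in all lines. Type 1 lay at 10.53, 10.28 and 10.39 and Type 2 at 11.96, 11.30, 11.40, 11.41 and 10.14. Type 3 ran from 10.97 through 11.99 to 12.82 and Other from 10.39 through 11.55 to 13.28. The Type 1 lines were close together (SD 0.12) and at the low end of the series, where line 5 of Type 2 and line 5 of Other, both PGF, also lay. Type 1 differed from Type 3 by -1.57 ± 0.51 (SE) and from Type 2 by -0.84 ± 0.55. All 5 of its probe sets put Type 1 below Type 3, with differences of -1.24 to -1.86, and each correlated with the main one at 0.97 or more.

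Sfrp2, on chromosome 3, did not follow the types. It read 10.07, 6.51 and 8.67 in Type 1 and 7.73, 4.95, 9.34, 9.98 and 9.24 in Type 2. Type 3 ran from 7.33 through 9.50 to 10.65, and Other from 3.51 through 9.07 to 11.60, the lowest and highest of the whole series. All 4 groups overlapped, and the SD of each (1.79, 2.02, 1.12 and 2.50 in Type 1, Type 2, Type 3 and Other) was larger than any difference between their means. The value of 3.51 is that of line 7 of Other, and the next line of that group read 8.92.

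Dkk3, on chromosome 7, had the largest deficit in Type 1. It read 5.64, 5.08 and 5.06 in Type 1 and 7.43, 8.76, 7.38, 8.33 and 7.48 in Type 2. Type 3 ran from 8.60 through 9.24 to 10.24 and Other from 6.76 through 9.54 to 10.03. All 20 lines outside Type 1 were above the 3 Type 1 lines. The Type 1 mean of 5.26 ± 0.33 (SD, n = 3) was 6.13-fold below that of Type 2 (7.87 ± 0.63, n = 5) and 17.8-fold below that of Type 3 (9.41 ± 0.61, n = 8). Only 1 of the 3 Type 1 lines lay above the table median, so the size of these folds rests on low signal in Type 1. Type 2 differed from Type 3 by -1.53 ± 0.44 (SE), and line 2 of Type 2 overlapped the lowest Type 3 line. The second probe set gave -3.96 for Type 1 minus Type 3, against -4.15 with the main one.

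Dkk2, on chromosome 3, was low in most lines and high in 5. Type 1 read 2.69, 2.77 and 2.81, and Type 2 3.35, 6.79, 3.78, 2.82 and 4.27. Type 3 ran from 3.27 through 4.03 to 7.82 and Other from 3.22 through 3.52 to 9.19. The 5 lines above 6 were line 2 of Type 2 (SCF, score 4), lines 3 and 4 of Type 3 (SCF, scores 2 and 4, at 7.24 and 7.82), and lines 5 and 6 of Other (PGF, scores 4 and 3, at 7.76 and 9.19). They came from 3 groups and both depots. Type 1 lay below all lines of the other groups, but the highest Type 1 line read 2.81 and the lowest Type 2 line 2.82, all well under the table median.

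Other was set against the mean of Types 2 and 3. As that mean minus Other, the differences were -0.95 ± 0.43 (SE) for Wnt16, -0.92 ± 0.43 for Ror1 and 0.55 ± 0.37 for Wnt5a, and those of the other 7 genes lay between -0.58 and 0.03. Single lines moved them: Wnt16 to -0.62 without line 4 of Other, Ror1 to -0.52 without line 7, Wnt5a to 0.36 without line 6, and Dkk2 from -0.58 to 0.11 without line 6. Lines 7 and 4 of Other set the extremes of their group for Wnt16 and were its 2 highest lines for Ror1.

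Depot was compared as PGF minus SCF in a model that keeps group, and so apart from the type differences on which the genes were selected. No member passed limma's test at an adjusted p of 0.05, and adjusted p ran from 0.657 to 0.998; over all tested genes 0% passed and 8.4% had an unadjusted p below 0.05, against 0 of the 10. The largest estimates were -0.61 ± 0.42 (SE) for Wnt16, -0.56 ± 0.34 for Sfrp1 and -0.56 ± 0.35 for Dkk3. That of Wnt16 was -0.24 without line 7 of Other, and those of Sfrp1 and Dkk3 were -0.36 without line 5 of Other and -0.85 without line 1 of Other. In Type 3, Dkk3 averaged 8.95 ± 0.29 in the 4 PGF lines and 9.87 ± 0.46 in the 4 SCF lines. Their ranges nearly met, at most 9.22 against at least 9.25. In Other the PGF range of 8.37 to 9.54 lay inside the SCF range of 6.76 to 10.03. The share of all tested genes whose depots separate in Type 3 was not counted, and nothing further is read from these ranges.

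The depot difference itself was compared between Type 3 and Other. For Dkk2 the PGF and SCF means were 3.77 ± 0.36 and 5.67 ± 2.18 in Type 3 (n = 4 each), and 6.81 ± 2.96 (n = 3) and 3.72 ± 0.71 (n = 4) in Other. That interaction was -5.00 ± 1.59 (SE), with an unadjusted p of 0.00546 and an adjusted p of 0.366 in limma. Wnt16 averaged 7.93 ± 0.85 in PGF and 7.67 ± 0.38 in SCF lines of Type 3, and 6.45 ± 1.34 in PGF and 8.39 ± 1.10 in SCF lines of Other, an interaction of 2.20 ± 0.81 (limma adjusted p = 0.439). Neither passed after adjustment, and no other member had an unadjusted p below 0.05, as 8.91% of all genes did. The estimates leaned on single lines of Other: without line 7 they were -6.66 for Dkk2 and 1.46 for Wnt16, and without line 6 -3.81 and 2.76.

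**Figure D2:**
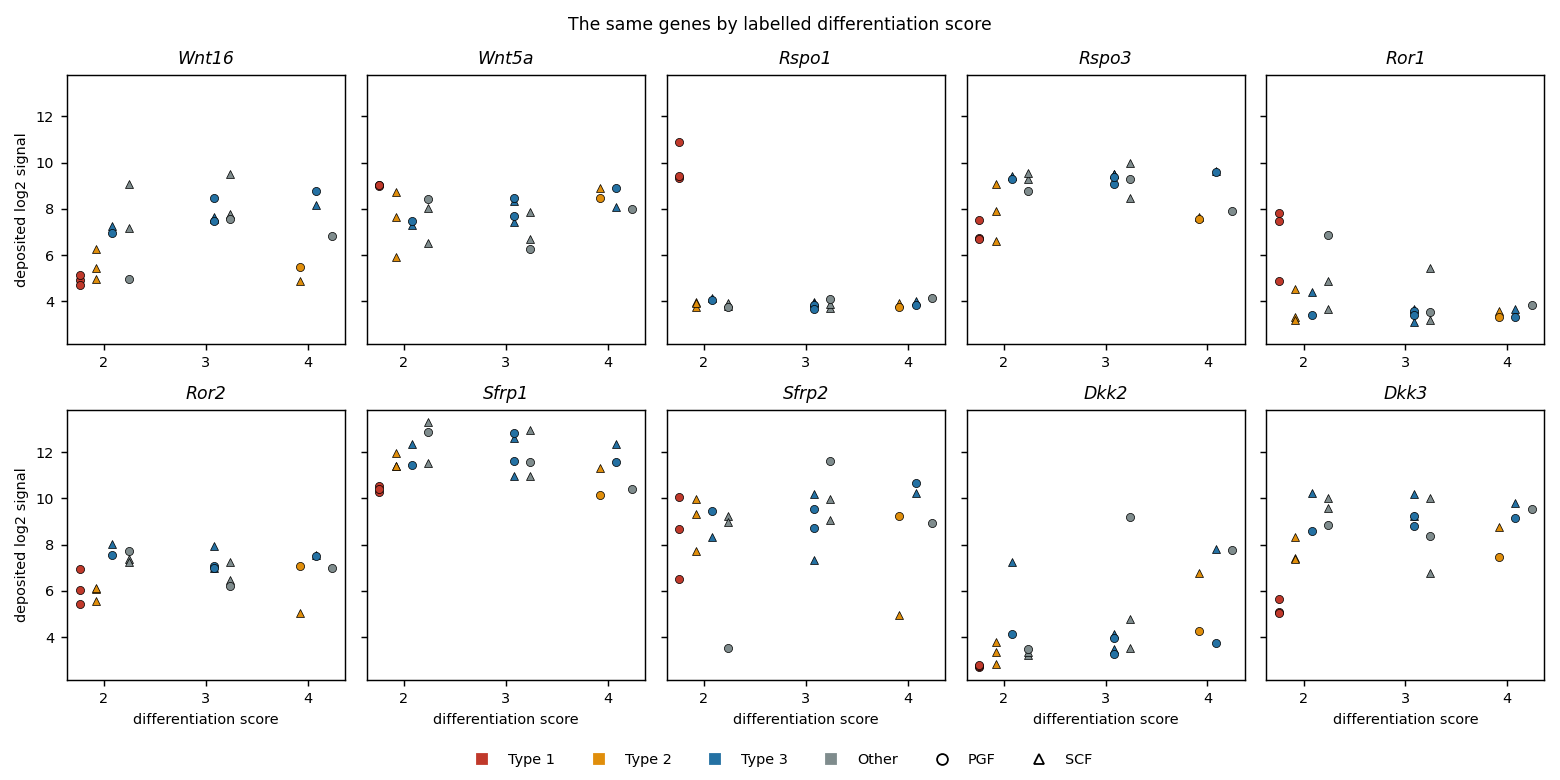
Deposited log2 signal of the 10 genes (y axis) against the labelled differentiation score of each line (x axis; groups are offset sideways around each score). Colours are groups, circles PGF and triangles SCF lines. Dkk2 is above 6 in 3 of the 5 lines of score 4, and Sfrp1 in Other runs from 11.54 to 13.28 at score 2 and is 10.39 in the line of score 4.

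Differentiation capacity was followed as the slope per point of the score within groups. No member passed (limma adjusted p 0.666 to 0.997; 0% of all genes passed), and 2 of the 10 had an unadjusted p below 0.05, beside 7.09% of all genes. Dkk2 had the largest slope, 1.09 ± 0.46 (SE) per point (unadjusted p = 0.0274, limma adjusted p = 0.666). In Type 2 it averaged 3.32 in the 3 lines of score 2 and 5.53 in the 2 of score 4, in Type 3 5.68, 3.71 and 5.78 at scores 2, 3 and 4, and in Other 3.36, 5.82 and 7.76. The value of 7.76 is that of 1 line, line 5 of Other. The means thus rose with the score in Type 2 and Other, while Type 3 had its lowest mean at score 3. Single Type 3 lines moved the slope most. It was 0.88 without line 4 of Type 3 and 1.46 without line 3 of Type 3.

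Sfrp1 sloped the other way, by -0.44 ± 0.20 (SE) per point (unadjusted p = 0.0379, limma adjusted p = 0.679). Its mean was 11.59 at score 2 and 10.72 at score 4 in Type 2, and 12.57, 11.83 and 10.39 at scores 2, 3 and 4 in Other, whereas Type 3 had 11.90, 12.01 and 11.97. The value of 10.39 is that of 1 line, line 5 of Other. The slope in Type 3 minus that in Other was 1.03 ± 0.48 (unadjusted p = 0.0453, limma adjusted p = 0.633). Without line 5 of Other that slope difference was 0.77. Across all tested genes 1 passed that interaction, or 0.00813%, and 7.85% had an unadjusted p below 0.05.

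Wnt5a had a slope of 0.41 ± 0.21 (SE) per point (limma adjusted p = 0.719), with means of 7.38, 8.00 and 8.49 at scores 2, 3 and 4 in Type 3 and of 7.66, 6.94 and 8.00 in Other. Score 4 in Other is again line 5 alone. The slope was 0.26 without line 1 of Type 2. At score 4, Type 2 lines read 8.90 and 8.47, against 5.92 to 8.75 at score 2. The same gene was nevertheless at its highest in the 3 Type 1 lines, which all have score 2. The other 7 slopes ran from -0.32 ± 0.26 for Ror1 to 0.26 ± 0.52 for Sfrp2, and that of Rspo1 was -0.0015 ± 0.09.

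The media acidification score gave no call either (limma adjusted p 0.509 to 0.996; 0% of all genes passed), and 0 of the 10 had an unadjusted p below 0.05, beside 12.3% of all genes. Estimates were positive for 7 of the 10, with a median of 0.13 per point against -0.0027 over all tested genes. The largest were 0.34 ± 0.33 (SE) for Dkk2, 0.27 ± 0.16 for Wnt16, 0.27 ± 0.34 for Sfrp2 and 0.23 ± 0.14 for Dkk3. Without line 4 of Other that of Wnt16 was 0.12, and without line 6 of Other those of Dkk2, Sfrp2 and Dkk3 were -0.022, 0.024 and 0.35.

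**Figure D3:**
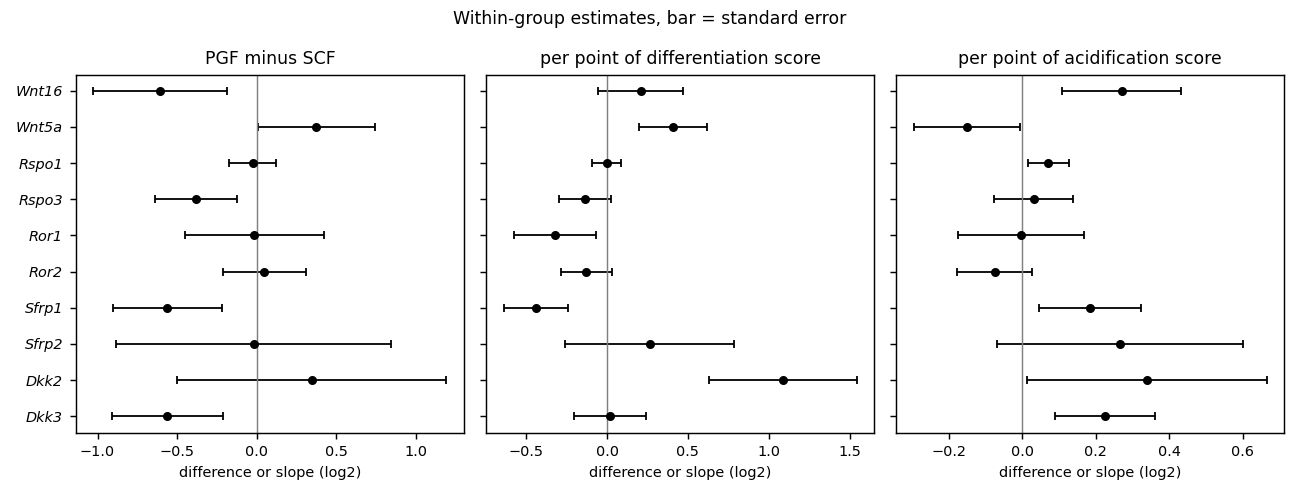
Estimates for the 10 genes from models that keep group as a term: PGF minus SCF, slope per point of the differentiation score and slope per point of the media acidification score (x axes, log2 units; bars are standard errors). Dkk2 has the largest slope on differentiation, 1.09, and the widest errors are those of Dkk2 and Sfrp2.

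Whether the genes vary together within groups was tested over the 45 pairs of members, using each line's deviation from its group mean in the 23 lines and 100000 permutations within groups (two-sided). No Pearson correlation passed after Benjamini-Hochberg adjustment over the 45 pairs, the lowest adjusted p being 0.127, and 2 Spearman correlations did. Ror1 and Sfrp1 had r = 0.56 (p = 0.0092, adjusted p = 0.127) and rho = 0.66 (p = 0.0015, adjusted p = 0.0337) in these permutation tests, with r = 0.64 without the 2 lines farthest on Ror1. Only 4 of the 23 lines read above the table median for Ror1, so most of its ranks order low signal. Its other 2 probe sets correlated with the main one at -0.26 and 0.42. These limits hold for every pair with Ror1. Wnt16 and Sfrp2 had r = 0.64 (p = 0.00889, adjusted p = 0.127) and rho = 0.65 (p = 0.00132, adjusted p = 0.0337) in the permutation tests. That r was 0.37 without the 2 lines farthest on Wnt16 and 0.34 without line 7 of Other alone, so the linear relation rests on few lines. Ror1 and Sfrp2 ran in opposite directions (r = -0.65 with an adjusted permutation p of 0.127, and rho = -0.55 with 0.219), and r was -0.40 without the 2 farthest lines. The paired receptors Ror1 and Ror2 had r = 0.13, and Wnt5a had r = 0.14 with Ror1 and 0.13 with Ror2 (adjusted permutation p = 0.849 for each of the 3).

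The genes whose levels were most like each member were sought among all tested genes, as a description over lines that share groups and arrays. Over the 23 lines, Rspo1 was most like Adamts20 (r = 0.996) and Col8a2 (0.994), Wnt16 like Laptm4a (0.91) and Selenbp1 (0.90), and Dkk3 like Dclk1 (0.91) and Pmp22 (0.91). Ror1 was most like Nceh1 (0.88), Rspo3 like Laptm4a (0.84), Sfrp1 like Runx1t1 (0.83), Sfrp2 like Rabep2 (0.83), Dkk2 like Ogn (0.78), Wnt5a like Polr3k (0.75) and Ror2 like Cotl1 (0.74). In the 20 lines outside Type 1 the closest gene stayed Cotl1 for Ror2 (0.785). It became Nfia for Wnt16 (0.92), Gstt1 for Rspo3 (0.87), Slc30a1 for Dkk3 (0.80) and Tiparp for Dkk2 (0.83). Only 5 of these 20 lines read above the table median for Dkk2, so most of its values are low signal. Rspo1 has no closest gene of use there, since its 20 values lie below the table median. Its r values over the 23 lines therefore reflect the gap between Type 1 and the other lines, on which the gene was selected.

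The rest of the pathway was read from 8 lists of 90 other genes, of which 87 were on the array and 68 passed the filter. In Type 1 minus Type 2, 12 of the 68 rose (17.6%, beside 14.5% of all tested genes) and 5 fell (7.35%, beside 10.7%). In Type 1 minus Type 3, 15 rose (22.1%, beside 18.9%) and 13 fell (19.1%, beside 15.8%). The median difference of the 68 was 0.02 and -0.05, against 0.01 and 0.01 over all genes. Both contrasts use the same 3 Type 1 lines, the shares are near those of all genes, and the groups were formed on expression, so the counts are no result about the pathway as a whole. Because the groups were formed on expression, the limma adjusted p of single genes in the type contrasts below are no independent test. They set the size of a difference against its spread. No pathway gene passed in Type 2 minus Type 3, where 18 of 68 had an unadjusted p below 0.05 in limma beside 17.6% of all genes, or in the mean of Types 2 and 3 minus Other, where 8 did beside 9.22%.

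Among 9 tested genes listed as beta-catenin targets, 3 rose and 2 fell against Type 2, and 2 rose and 3 fell against Type 3. As for the lists below, the shares of all tested genes to read these beside are 14.5% higher and 10.7% lower against Type 2, and 18.9% higher and 15.8% lower against Type 3, and counts this small are given as a description. Ccn4, a matricellular protein gene, read 10.36 to 11.15 in Type 1, against 6.59 to 8.20 in Type 2 lines and 6.32 to 7.46 in those of Type 3. The difference was 3.34 ± 0.32 from Type 2 and 3.89 ± 0.29 from Type 3 (SE; limma adjusted p of 5.46e-08 and 1.15e-09). Axin2, a feedback inhibitor and common readout of canonical signalling, read 7.04, 6.42 and 6.87 in Type 1, above the range of 4.59 to 5.29 in the 20 other lines; it rose by 1.80 ± 0.14 and 1.73 ± 0.13 (limma adjusted p of 1.57e-09 and 6.26e-10). Ccnd1, a cyclin of the G1 phase, and Ccn5, a relative of Ccn4, fell instead. Ccnd1 differed by -3.58 ± 0.69 from Type 2 and -3.28 ± 0.64 from Type 3 (limma adjusted p of 0.000557 and 0.000432), sizes that were -2.24 and -1.95 without line 1 of Type 1, and Ccn5 by -2.74 ± 0.47 and -3.50 ± 0.44. Apcdd1, an inhibitor that binds Wnt and Lrp, rose by 2.21 ± 0.80 against Type 2 (limma adjusted p = 0.0473), a call that ended in 12 of the 23 fits that left out 1 line, among them each of the 3 Type 1 lines, and with no filter on low values (limma adjusted p = 0.0605). The list holds genes that move in opposite directions, and its median difference was -0.28 from Type 2 and 0.01 from Type 3.

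Of 14 tested receptors and co-receptors, 1 rose against Type 2, and 3 rose and 2 fell against Type 3, shares near or below those of all genes. Fzd6 averaged 9.78 in Type 1, 7.67 in Type 2 and 7.01 in Type 3, differences of 2.11 ± 0.34 and 2.76 ± 0.31 (SE; limma adjusted p of 7.19e-05 and 5.56e-07), although another of its probe sets had the opposite sign without passing. Fzd5 rose by 1.01 ± 0.20 against Type 3 (limma adjusted p = 0.000602). Fzd4 rose by 1.32 ± 0.50 (limma adjusted p = 0.0443), a call lost in 10 of 23 fits that left out 1 line, again among them each Type 1 line, and with no filter (limma adjusted p = 0.0569). Fzd1 fell by 1.79 ± 0.31 (limma adjusted p = 0.000128).

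In the R-spondin axis, no gene rose and the 5 tested genes had a median difference of -0.86 from Type 2 and -1.13 from Type 3. Lgr4, a receptor of R-spondins, averaged 9.34 in Type 1, against 11.06 in Type 3, and fell by 1.72 ± 0.33 (SE; limma adjusted p = 0.000351). Rspo2 fell by 2.41 ± 0.83 against Type 3 (limma adjusted p = 0.0279), without its call when line 1 or 3 of Type 1 was left out. Its Type 1 mean of 4.53 lay below the table median. With an offset of 16 on the linear scale the difference was -1.82 and did not pass (limma adjusted p = 0.0638). Of its 2 tested probe sets 1 passed. Lgr6 fell by 2.05 ± 0.64 against Type 2 (limma adjusted p = 0.0218), without its call when line 3 of Type 2 or line 1 or 3 of Type 1 was left out. Beside these, Rspo1 was higher and Rspo3 lower in the Type 1 than in the Type 3 lines.

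Of the other ligands, Wnt9a was higher in Type 1 by 1.95 ± 0.19 against Type 2 and 1.94 ± 0.18 against Type 3 (SE). Its mean was 5.90 in Type 1, and it lay below the table median in the 20 other lines (at most 4.32). Frzb, a secreted Frizzled-related inhibitor, was higher by 2.30 ± 0.41 and 2.20 ± 0.38 (SE). Wnt9a met the filter on low values only through the 3 Type 1 lines, and Frzb only with them. Their differences are therefore given as a description, without a test, although the counts above include both. In the planar cell polarity list, which holds the beta-catenin-independent branch, 3 of 10 tested genes rose and none fell against Type 2, and 3 rose and 2 fell against Type 3. Daam1, a formin that acts downstream of Dishevelled, rose by 2.36 ± 0.26 against Type 2 and 2.03 ± 0.24 against Type 3 (limma adjusted p of 5.4e-07 and 1.24e-06). Prickle1 rose by 1.89 ± 0.36 against Type 2 (limma adjusted p = 0.00045), with another probe set of opposite sign that did not pass, and Prickle2 fell by 2.06 ± 0.49 against Type 3 (limma adjusted p = 0.00238). Of 13 tested transduction genes, 3 rose and 2 fell against Type 2, and 3 rose and 3 fell against Type 3. Among them Bcl9l, a co-activator of beta-catenin, fell by 0.90 ± 0.16 against Type 2 (limma adjusted p = 0.000232). The Tcf factors Tcf7l1 and Tcf7l2 fell by 0.98 ± 0.16 and 1.39 ± 0.27 against Type 3 (limma adjusted p of 8.33e-05 and 0.000381); against Type 2, Tcf7l1 fell by 0.58 ± 0.18 (limma adjusted p = 0.0178), a call lost without line 2 of Type 1.

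**Figure D4:**
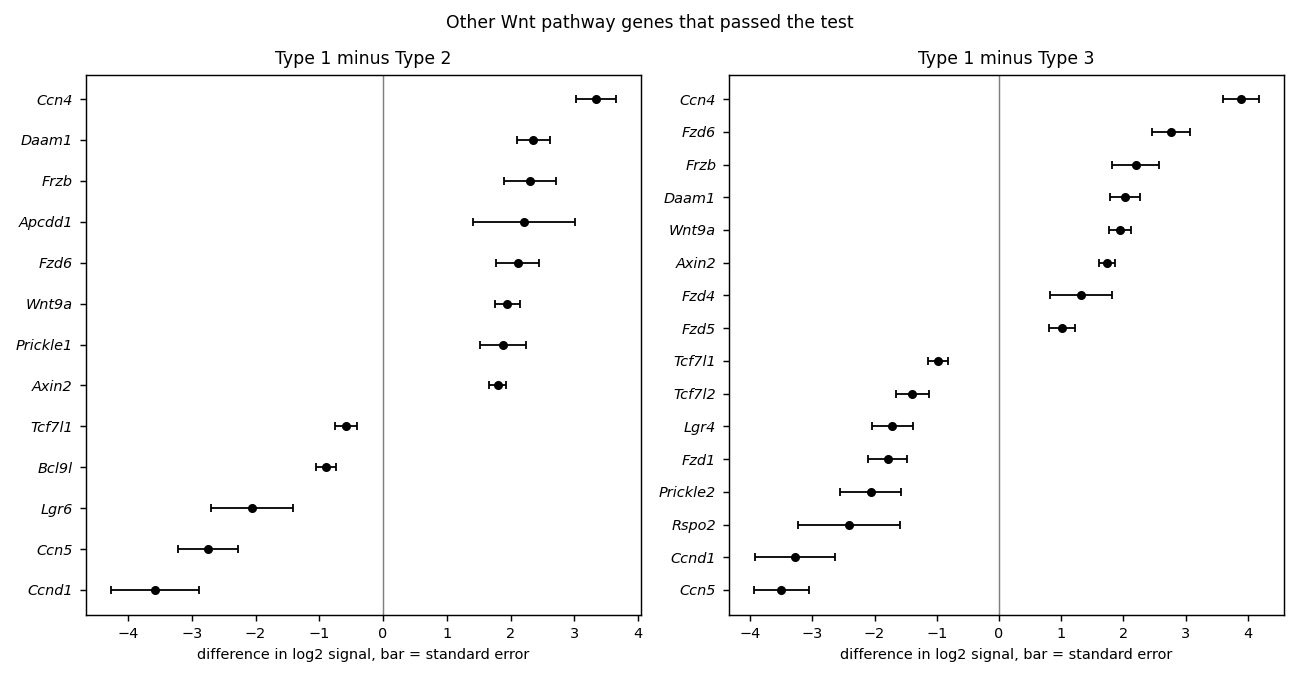
Differences in log2 signal (x axis, bars are standard errors) of the named pathway genes that passed the test (y axis), for Type 1 minus Type 2 on the left and Type 1 minus Type 3 on the right. Wnt9a and Frzb, which met the filter only with Type 1 lines, are shown as a description. Ccn4 lies farthest to the right in both, at 3.34 and 3.89, and Ccnd1 and Ccn5 farthest to the left, between -2.74 and -3.58.

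For depot and the scores no pathway gene passed in limma (0% of all genes). The smallest unadjusted p for depot was that of Wnt7b, at 0.18 ± 0.05 (SE; limma adjusted p = 0.492), and with the opposite sign Tcf7l1, at -0.31 ± 0.09 (limma adjusted p = 0.492). For the differentiation score it was Apcdd1, at 0.79 ± 0.27 per point (limma adjusted p = 0.571), and for acidification Fzd2, at 0.21 ± 0.05, and Rspo2, at 0.67 ± 0.18 per point (limma adjusted p = 0.285 each). For the depot interaction the pathway gene with the smallest p was Prickle2, at 2.43 ± 0.46 (limma adjusted p = 0.114).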

How the data were processed

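RNA of 23 clonal lines was read on arrays after biotin labelling, 1 array per line, from 250 ng of total RNA per the labels' protocols. Deposited values are log2 signal per probe set, as judged from their range (2.03 to 14.46) and shape. MAS5, without a version, is the tool that the submitters' processing notes name; the summarising and scaling steps are not given in those sources. The nearly equal medians, and a value repeated exactly on 2 or more arrays in 39.1% of the probe sets with a single symbol, leave the method unsettled, and the size of every fold depends on it. With array medians of 5.09 to 5.16, no further scaling was applied. Of 45101 probe sets, 34958 carry a single gene symbol in the platform annotation (34754 matched RefSeq GRCm38.p6 by Entrez ID), 932 several and 9211 none; those with several named no gene.

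Groups came from the labels, replicate numbers are names given in order of deposition, and depot was read from the clone name. limma 3.58.1 (lmFit and eBayes, R 4.3.3) was fitted over all 23 lines and the 12307 genes whose signal exceeded the table median in 3 or more lines, with Benjamini-Hochberg adjustment over all of them and a threshold of 0.05. Type contrasts used a group-means model; depot and score models kept group as a term. The scripts were tested on simulated data. Python 3.11.15 with numpy 2.4.6, scipy 1.17.1 and pandas 2.3.3 gave the permutations and tables.

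The members and the gene lists were chosen with earlier results of these data known. Named pathway genes are those with the largest differences among genes that passed a type contrast, up to 8 per direction, and, where none passed, the 2 smallest p-values per direction. The 2 genes most like each member, leaving out clone and predicted names, were taken by Pearson correlation. A gene's level was never set against that of another gene. Alternatives changed the scaling, the filter, the probe set rule, the weights, the block, the covariates and the lines used.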

Additional observations from a re-analysis of the deposited data

Results flagged for a closer look

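Each member was checked for a single line far from its group in Type 2, Type 3 and Other, 30 groups of values in all, by the gap to the nearest line over the range of the group. Chance flags about 1 in 20 such groups, and 2 were marked. Ror1 read 4.4017 in line 3 of Type 3, the highest of its group, against 3.68 in the next line, a gap of 0.57 of the group's range. Sfrp2 read 3.5096 in line 7 of Other, the lowest of its group, against 8.92 in the next line, a gap of 0.67 of the range. That line also reads highest in its group for Ror1 (6.86) and lowest for Wnt16 (4.96), and it is the line of Other that correlates least with its own group. No difference between groups in a depot effect or a slope passed for a member.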

How the results depend on the processing

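No paired analysis was possible because the labels carry no replicate numbers that pair lines across groups. No member passed for depot, the scores or the interactions named in the text under any of these alternatives, and the lowest adjusted p of a member there was 0.191 (Dkk2, depot interaction, array weights). Of 1148 refitted depot, score and interaction estimates of members, 1058 kept their sign and 90 turned it, none past the threshold. As PGF minus SCF, estimates turned to 1.62 (Rspo1), 0.79 (Ror1), 0.033 (Sfrp2) and -0.16 (Dkk2) with no group term, which leaves the Type 1 lines, all PGF, in the contrast. They turned to 0.044 (Rspo1), 0.18 (Ror1) and 0.094 (Sfrp2) with both scores and depot in the model, to -0.035 (Ror2), 0.37 (Sfrp2) and -0.0011 (Dkk2) with array weights, to 0.048 (Ror1) and 0.094 (Sfrp2) with an offset of 16, to 0.0041 (Ror1) and -0.014 (Ror2) with the mean of the probe sets, to 0.0005 (Ror1) with each array centred on its median and to 0.0037 (Ror1) with the clone-name prefix as a random block. Slopes on the differentiation score turned to 0.23 (Rspo3) and 0.068 (Ror2) with no group term, to -0.15 (Sfrp2) and -0.088 (Dkk3) with array weights, to -0.22 (Dkk3) with scores 3 and 4 against score 2, and for Rspo1 to 0.0061 with centred arrays and 0.0002 with quantile normalization. Slopes on acidification turned with no group term to -0.050 (Wnt16), 0.023 (Wnt5a), -0.16 (Rspo3), 0.054 (Ror1) and -0.097 (Dkk3), with array weights to -0.045 (Rspo3) and 0.036 (Ror1), with both scores and depot to -0.0082 (Rspo3) and 0.040 (Ror1), and without the 3 Type 1 lines to 0.054 (Ror1); the cause was not tested.

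Leaving out 1 line turned the sign of 13 of these estimates, whose ranges were as follows. For depot they were -0.070 to 0.0084 (Rspo1), -0.40 to 0.13 (Ror1), -0.24 to 0.18 (Ror2), -0.48 to 0.82 (Sfrp2) and -0.29 to 0.79 (Dkk2). For the differentiation score they were -0.039 to 0.020 (Rspo1), -0.25 to 0.00 (Rspo3), -0.099 to 0.78 (Sfrp2) and -0.11 to 0.10 (Dkk3). For acidification they were -0.064 to 0.091 (Rspo3), -0.10 to 0.095 (Ror1), -0.13 to 0.023 (Ror2) and -0.022 to 0.58 (Dkk2).

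Differences of members between groups, with no test, were refitted 1338 times. They kept their sign in 1294 refits, changed in size by over 1.5 times in 143, and moved by more than the spread within groups in 11. The sign turned in 44 refits of 9 of the 40 differences, among them Ror2 and Sfrp2 in Type 1 minus Type 2 (-0.37 to 0.51 and -0.66 to 1.13) and Sfrp2 in Type 1 minus Type 3 (-1.72 to 0.06). Of the 11, Type 1 minus Type 2 and Type 1 minus Type 3 for Rspo1 were 4.97 and 4.94 with the offset, and 5.59 and 5.56 with array weights. With the mean of the probe sets, Ror1 gave 1.07 and 1.08, and Rspo3 -1.54 for Type 1 minus Type 3; for Type 2 minus Type 3, Rspo3 gave -0.90 and Ror2 -0.89. Without line 1 of Type 1, those of Rspo1 were 5.51 and 5.45.

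The count of pathway genes in Type 1 minus Type 2 was 17 and became 35 with array weights; leaving out 1 line it ran from 13 to 22, and in Type 1 minus Type 3, 28 as reported, from 20 to 30, lowest in both without line 1 of Type 1. In Type 2 minus Type 3 it became 10 with array weights, 5 over the 16 lines of the 3 types and 1 with depot in the model, and ran from 0 to 1 leaving out 1 line (1 without line 7 of Other). Over all genes, Type 1 minus Type 2 called 3099 and 5818 with array weights (2004 without line 1 of Type 1, up to 3344), and Type 1 minus Type 3 called 4274 and 7013 with array weights. Type 2 minus Type 3 called 47 over all genes, with 1037 under array weights, 565 over the 16 lines, 133 with depot, 9 with no filter and 7 with the mean of the probe sets; it ran from 0 without line 1 of Type 2 to 195 without line 7 of Other. The differentiation slope called 6 genes with both scores and depot in the model. Its interaction called 0 with array weights or with scores 3 and 4 against score 2, and 0 to 3 leaving out 1 line, and the depot interaction 0 to 2 and the mean of Types 2 and 3 minus Other 0 to 1. The depot interaction could not be fitted without line 5 of Type 2. Calls of Apcdd1, Lgr6 and Tcf7l1 against Type 2 and of Fzd4 and Rspo2 against Type 3 were lost with depot in the model.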
